A study of Mus musculus with 2 samples.

Results

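The 35 genes described here are markers of microglia, the resident macrophages of the brain, measured in RNA from mouse cerebral cortex. They were chosen by symbol and are 35 of 55536 annotated genes. All 35 were listed in both deposited quantifications, and no value of these libraries entered the choice rule. The genes and their classes were nevertheless chosen with earlier results of these data known. Total RNA came from left cerebral cortex, with 1 library for each of 2 female mice in adulthood (8 to 10 months). Their strain, B6CASTF1/J, is a first-generation hybrid between C57BL/6J and CAST/EiJ. The labels name no treatment, and both animals form the only group. Replicate 1 is animal 1 in the labels and replicate 2 is animal 5, but both carry the same donor entry, so their separate origin rests on the animal numbers. The input was 300 ng of RNA depleted of ribosomal RNA, with synthetic ERCC spike-in transcripts added. No groups are compared, so the values describe these 2 animals and no test across animals was run.

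Microglia arise from yolk sac progenitors, settle in the brain early in development and maintain themselves there by division. Their survival depends on the receptor encoded by Csf1r, and in the resting brain they keep a programme of surface receptors and transcription factors, called homeostatic here, that depends on TGF-beta signalling. Around amyloid plaques and in injury they lower many homeostatic genes and raise lipid handling and phagocytic genes, here called activation genes, a switch that involves the receptor Trem2 and its adaptor Tyrobp.

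Levels are TPM, a length-corrected share of all transcripts, from the first of the 2 deposited quantifications unless the second is named. The libraries held 28327434 and 30234441 estimated counts. A log2 difference is replicate 2 minus replicate 1 in TMM-scaled counts, given for genes that averaged 50 counts or more (31 of the 35). The counting SE covers read sampling alone. In tissue RNA, fewer microglia and less RNA per cell cannot be told apart.

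The homeostatic genes were present throughout, and the activation genes fell into a present pair and a nearly absent pair. All 14 homeostatic genes reached 1 TPM in both animals, with a median of 10.8 TPM in replicate 1 and 9.90 in replicate 2 (10.3 ± 0.622, SD, n = 2). Of the 4 activation genes, Lpl and Spp1 reached 1 TPM in both animals and Itgax and Cst7 in neither. The activation median was 4.11 TPM and 3.47 TPM (3.79 ± 0.456, SD, n = 2), a value that lies between the pairs and describes no single gene. Within each library the homeostatic median exceeded the activation median 2.62-fold in replicate 1 and 2.86-fold in replicate 2. This ratio depended on which genes were counted: without Lpl and Spp1, which other cortical cells also express, it was 67.3 and 104.2. Those values rest on activation medians of 0.16 and 0.095 TPM from Itgax and Cst7, which had at most 10 counts in a library. With Trem2, Tyrobp, Cd68, Fcer1g and Fcgr3 counted as activation genes it was 1.65 and 1.51. In separate lists of 20 further homeostatic and 25 further activation genes, described below, the medians lay close together. The further homeostatic median was 3.09 TPM in replicate 1 and 3.86 in replicate 2, and the further activation median 2.9 and 3.76 TPM. The larger excess was thus seen for the chosen classes and not for the further lists.

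**Figure D1:**
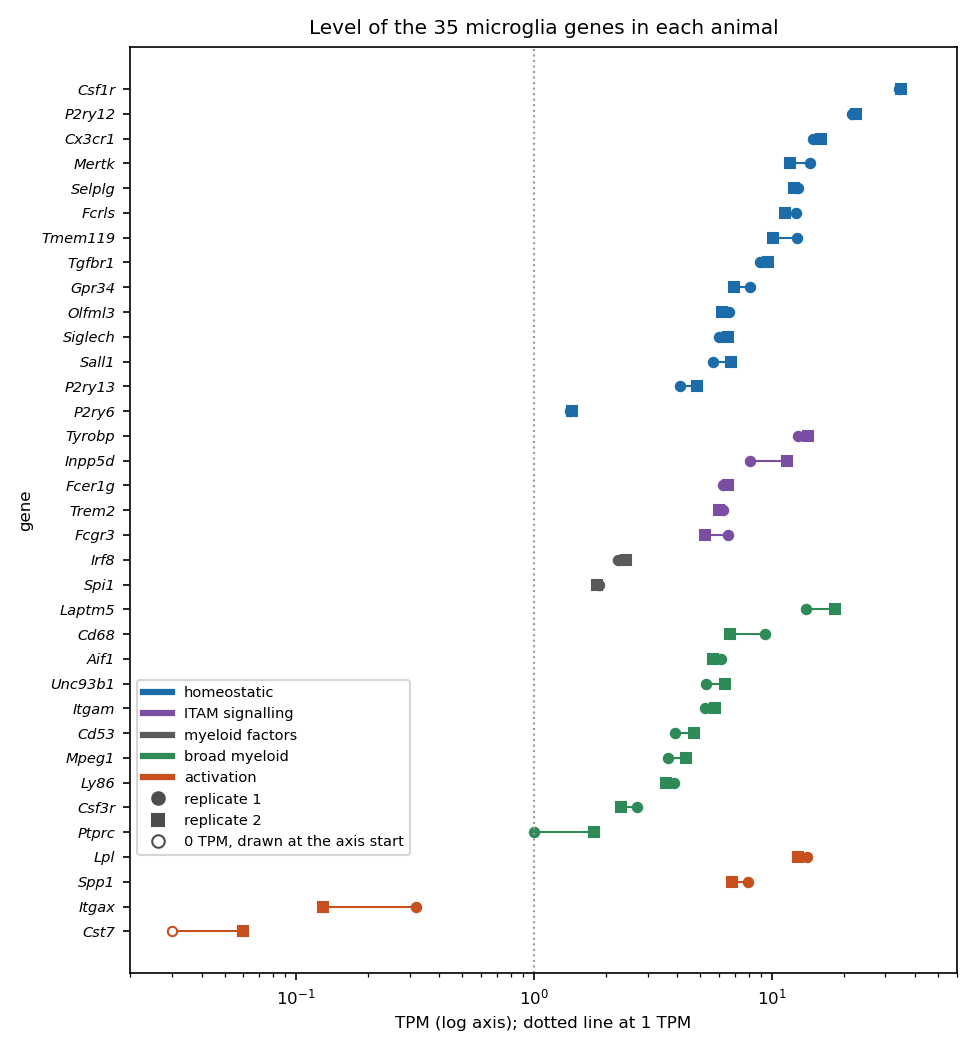
TPM (log axis) of each of the 35 genes in replicate 1 (circles) and replicate 2 (squares), ordered by mean level within 5 colour-coded classes. All genes but Itgax and Cst7 lie at or to the right of the dotted line at 1 TPM in both animals, and only Csf1r and P2ry12 exceed 20 TPM.

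Over all 5 classes, 33 of the 35 genes were detected at 1 TPM or more in both animals, where 58.9% of nuclear protein-coding genes were. Their levels were low beside the rest of the cortex: by their means over both animals, 33 of the 35 lay below the median of detected protein-coding genes, 16.5 TPM. The means of Csf1r and P2ry12 lay above it, and in replicate 2 Laptm5 did too. The neuronal gene Snap25, a presynaptic SNARE protein of vesicle fusion, stood 36.9-fold and 39.1-fold above Csf1r. Neuronal and macroglial markers from a list of 12 other cortical genes were all detected, between 17.1 and 1312 TPM.

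Csf1r, the receptor tyrosine kinase for the cytokines Csf1 and Il34, had the highest level of the 35 genes, with 34.1 TPM in replicate 1 and 34.9 TPM in replicate 2. Its reads numbered 2064 and 2213, and the log2 difference was -0.036 with a counting SE of 0.044. The animals therefore differed in Csf1r by less than the counting error. Of its ligands, Il34, made by neurons, stood at 51.9 and 38.8 TPM and Csf1 at 9.72 and 10.3 TPM. Il34 exceeded Csf1 5.34-fold in replicate 1 and 3.76-fold in replicate 2. Csf3r, a cytokine receptor of another family that binds the granulocyte factor, had 2.71 and 2.31 TPM, so that Csf1r stood 12.6-fold and 15.1-fold above it. Exons of Csf1r overlap those of Hmgxb3 on the opposite strand (1648 and 1855 counts), and the sources used here do not say whether counting used strand.

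The purinergic receptors sense nucleotides released from nearby cells. P2ry12, the ADP receptor that steers microglial processes towards injury, had 21.7 TPM in replicate 1 and 22.5 in replicate 2. Its neighbour on chromosome 3, the ADP receptor P2ry13, had 4.11 and 4.85 TPM, and P2ry6, a UDP receptor tied to phagocytosis, 1.42 and 1.44 TPM. The order P2ry12, P2ry13, P2ry6 held in both animals. P2ry12 exceeded P2ry13 5.29-fold and 4.63-fold, and P2ry13 exceeded P2ry6 2.89-fold and 3.37-fold. Both P2ry12 and P2ry13 lie inside Med12l, which is transcribed from the opposite strand and had 2555 and 2647 counts. Of the 35 genes, 23 overlap no other annotated gene and 5 share exon bases with one. P2ry12 shares exon bases with Med12l and P2ry13 lies in its intron.

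Cx3cr1, the receptor for the neuronal chemokine Cx3cl1, had 14.9 TPM in replicate 1 and 16.1 in replicate 2. Its ligand stood far higher, at 262.0 and 197.4 TPM, which is 17.6-fold and 12.2-fold the level of the receptor. Cx3cl1 had a log2 difference of -0.50 (counting SE 0.018), while that of Cx3cr1 was 0.046 (counting SE 0.063). Ligand and receptor thus differed between the animals by unlike amounts, and the counting SE of Cx3cr1 exceeded its difference.

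Tmem119, a membrane protein used to tell microglia from other macrophages, had 12.8 TPM in replicate 1 and 10.1 in replicate 2. Its counts were 497 and 409, a log2 difference of -0.42 (counting SE 0.096), which kept its sign under each of the 4 scalings and in the second quantification. Siglech, a sialic acid-binding lectin, had 5.97 and 6.56 TPM. Fcrls, an Fc receptor-like protein, had 12.6 and 11.4 TPM. Selplg, the selectin ligand PSGL, had 12.9 and 12.4 TPM, and Gpr34, a lysophosphatidylserine receptor, 8.06 and 6.95 TPM. Gpr34 lies inside an intron of Cask on the opposite strand. Tmem119 and Gpr34 were lower in replicate 2, and the other genes of this paragraph had log2 differences from -0.13 for Selplg to 0.19 for Siglech.

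Sall1, a zinc finger factor that maintains microglial identity, had 5.67 TPM in replicate 1 and 6.70 in replicate 2. Tgfbr1, a TGF-beta receptor subunit that many cell types express, had 8.95 and 9.66 TPM. Its partner Tgfbr2 stood at 5.71 and 7.51 TPM. Mertk, a receptor tyrosine kinase by which phagocytes recognise dying cells and which astrocytes also express, had 14.5 and 11.9 TPM. The log2 difference of Mertk was -0.30 (counting SE 0.065) and that of Sall1 was 0.16 (counting SE 0.084). The bridging ligands of Mertk differed in level: Gas6 had 44.1 and 51.2 TPM, 8.56-fold and 10.4-fold the level of Pros1.

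Olfml3, a secreted olfactomedin-like protein enriched in microglia, had 6.58 and 6.16 TPM. Most of this level was assigned to a transcript annotated as a retained intron, Olfml3-202, with 89.0% of the gene in replicate 1 and 86.5% in replicate 2. The second quantification gave it 92.0% and 92.8%. Olfml3 was the only one of the 35 genes whose leading transcript was not annotated as protein coding in both quantifications. The kept intron spans chr3:103737238-103737821 of mm10, 584 bases on the minus strand. Its ends are shown here from the GENCODE M21 transcript because they are what sets Olfml3-202 apart at its 5′ side, with intron bases in capitals and exon bases in lower case.
Olfml3-202, intron start: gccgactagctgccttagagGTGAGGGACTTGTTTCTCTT
Olfml3-202, intron end: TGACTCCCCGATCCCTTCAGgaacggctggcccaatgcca
Olfml3-202 also ends 2035 bases before the coding transcript Olfml3-201 at the 3′ side. The tables do not say which of these differences drew the reads, so the share is no measure of intron retention.

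The next class signals through immunoreceptor tyrosine-based activation motifs (ITAMs). Trem2, a lipid-sensing receptor, had 6.23 TPM in replicate 1 and 5.98 in replicate 2. Tyrobp, the ITAM adaptor that Trem2 needs for signalling, had 12.8 and 14.2 TPM, 2.06-fold and 2.37-fold the level of Trem2. Fcer1g, the adaptor shared by Fc receptors, had 6.24 and 6.56 TPM, and Fcgr3, an activating receptor for IgG, 6.55 and 5.22 TPM. Inpp5d, a lipid phosphatase that restrains this pathway, had 8.11 and 11.6 TPM. The adaptor Tyrobp therefore stood above both of the receptors named here in each animal. Downstream, the kinase Syk had 1.40 and 1.35 TPM and the phospholipase Plcg2 1.25 and 1.87 TPM.

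By scaled counts, 3 of the 5 ITAM genes were higher in replicate 2 and 2 were lower, where 45.6% of all genes were higher. In the second quantification 2 of the 5 were higher. Trem2 had a log2 difference of 0.10 (counting SE 0.18), and both Trem2 and Fcer1g ran the other way by TPM. Inpp5d had a log2 difference of 0.22 (counting SE 0.11). Fcgr3 had -0.52 (counting SE 0.18), the lowest of the 31 genes compared. The reads of Fcgr3 were partly shared out among features in the deposited estimate, since its counts of 147.8 and 113.1 are not whole, so its level carries that added uncertainty. Tyrobp and Fcer1g had only 108 and 124, and 65 and 71 counts, and their log2 differences of 0.062 and -0.009 lay within the counting SEs of 0.19 and 0.25.

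A minor transcript of Trem2, Trem2-202, had 28.0 and 36.9 estimated counts in the first quantification. Trem2-202 took 25.9% and 34.2% of the gene in the first quantification and 25.3% and 23.8% in the second. Its share was thus higher in replicate 2 by the first and lower there by the second. Trem2-201 led in all 4 estimates, which come from the same 2 libraries. Trem2-202 differs at exon 4, which begins 55 bases earlier (chr17:48351691-48351745, plus strand). The added bases lie in coding sequence and are not a multiple of 3 in number. They are shown in capitals, between bases of the preceding exon and of the usual exon 4, because they define the alternative form.
Trem2-202, exon 3 into exon 4: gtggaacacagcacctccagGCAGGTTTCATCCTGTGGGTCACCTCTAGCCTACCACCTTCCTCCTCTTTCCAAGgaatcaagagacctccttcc

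The intron form of Fcgr3 was less stable. Fcgr3-203, annotated as a retained intron, took 0% of the gene in replicate 1 and 55.0% in replicate 2 in the first quantification, but 85.6% and 69.3% in the second. Its 5′ end holds 106 intron bases at chr1:171057949-171058054 on the minus strand, in capitals below, followed by exon bases.
Fcgr3-203, 5′ end: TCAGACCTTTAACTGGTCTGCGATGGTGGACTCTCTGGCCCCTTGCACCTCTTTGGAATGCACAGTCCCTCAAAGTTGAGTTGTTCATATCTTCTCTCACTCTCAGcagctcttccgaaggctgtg
Because the quantifications of the same libraries disagreed by this much, no difference between the animals can be read from Fcgr3 transcripts.

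The myeloid transcription factors were among the lowest genes. Irf8, an interferon regulatory factor needed for microglial development, had 2.25 TPM in replicate 1 and 2.43 in replicate 2. Spi1, which encodes PU.1, the ETS factor at the top of the myeloid programme, had 1.88 and 1.84 TPM from 41 and 44 counts. Both factors thus lay below every homeostatic gene but P2ry6. Irf8 overlaps Gm20388 on the same strand.

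The broad myeloid genes are shared with other macrophages and leukocytes. Laptm5, a lysosomal membrane protein of blood cells, led them with 13.9 TPM in replicate 1 and 18.3 TPM in replicate 2. Its log2 difference of 0.26 (counting SE 0.096) was the highest of the 31 genes compared. Cd68, a glycoprotein of late endosomes and lysosomes, had 9.37 and 6.68 TPM. Aif1, the calcium-binding protein Iba1 of histology, had 6.11 and 5.68 TPM from 66 counts in each library. Unc93b1, which carries nucleic acid-sensing Toll-like receptors to endosomes, had 5.28 and 6.35 TPM. Itgam, an integrin subunit of complement receptors, had 5.24 and 5.79 TPM.

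Lower still were Cd53, a tetraspanin, with 3.93 and 4.72 TPM, Mpeg1, a pore-forming protein of phagosomes, with 3.67 and 4.37 TPM, and Ly86, a partner of a Toll-like receptor homologue, with 3.87 and 3.58 TPM. Ptprc, the leukocyte common antigen CD45, had 1.00 and 1.79 TPM. By scaled counts, 4 of the 10 broad myeloid genes were higher in replicate 2 and 6 were lower, where 45.6% of all genes were higher. Unc93b1 and Itgam were among the lower genes, with log2 differences of -0.105 and -0.2, although their TPM was higher in replicate 2. Ptprc had 68 and 87 counts, a log2 ratio of 0.26 when scaled by the library totals. Its log2 TPM ratio was 0.84, because the estimated effective length was 3750 bases in replicate 1 and 2574 in replicate 2. Ptprc was the only one of the 31 genes for which these ratios of TPM and counts lay more than 0.5 log2 apart, which happened for 2.0% of all genes.

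Cd68-203 lacks the exon that normally follows the exon of the start codon. This transcript, annotated as a processed transcript, took 58.1% of Cd68 in replicate 1 and 23.5% in replicate 2, and 44.9% and 0% in the second quantification. The skipped exon spans 434 bases at chr11:69665503-69665936 on the minus strand and is coding in Cd68-201. The junctions are shown with the shared exon 1 in capitals and the following exon in lower case.
Cd68-203, exon 1 to exon 3: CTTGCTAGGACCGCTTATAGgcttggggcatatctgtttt
Cd68-201, exon 1 to exon 2: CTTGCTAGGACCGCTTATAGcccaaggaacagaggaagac
Cd68-203 was given the smaller share in replicate 2 by both quantifications, from 50.5 and 15.2 estimated counts in the first.

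Lpl, lipoprotein lipase, which frees fatty acids from lipoproteins, had 14.1 TPM in replicate 1 and 12.8 in replicate 2. Only Csf1r, P2ry12 and Cx3cr1 among the homeostatic genes had a higher mean. Spp1, the secreted phosphoprotein osteopontin, had 7.90 and 6.80 TPM. Lpl exceeded Spp1 1.78-fold and 1.89-fold. Neurons and other cortical cells also make both, and which cells contributed was not tested. Log2 differences were -0.18 (counting SE 0.070) for Lpl and -0.16 (counting SE 0.16) for Spp1, and both were above 0 with spike-in scaling, at 0.096 and 0.11.

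The remaining activation genes were close to the counting floor. Itgax, the integrin subunit CD11c of dendritic cells and of microglia at plaques, had 3 counts in replicate 1 and 10 in replicate 2. Its TPM ran the other way, at 0.32 and 0.13, because the effective length given to it was 521 bases in replicate 1 and 3946 in replicate 2. Cst7, the cysteine protease inhibitor cystatin F, had 0 counts in replicate 1, which allows up to 0.187 TPM (3 counts), and 1 count in replicate 2. Neither gene supports a comparison between the animals.

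From a list of 25 further activation genes, 14 (56.0%) were detected in both animals, near the 58.9% of nuclear protein-coding genes. Levels in this list covered a wide range. Apoe, the lipid carrier that astrocytes make in quantity, had 842 and 807 TPM. The lysosomal proteases Ctsb and Ctsd had 255 and 261, and 160 and 165 TPM, and Ank, a pyrophosphate exporter, 94.5 and 95.1 TPM. All 4 are also expressed by other cortical cells. At the other end, Clec7a, a beta-glucan receptor induced in activated microglia, was listed at 0 TPM in replicate 1 and 0.28 in replicate 2, and the cytokine genes Ccl4 and Tnf were listed at 0 TPM in both animals. Over the 14 with enough counts the median log2 difference was -0.022, equal to that of all genes.

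From a list of 20 further homeostatic genes, 18 (90.0%) were detected in both animals, beside 58.9% of nuclear protein-coding genes. Mef2c, a transcription factor that excitatory neurons also express, had 209.2 and 312.4 TPM. Itgb5, an integrin subunit, had 20.7 and 21.1 TPM. Of the 16 with at least 50 counts on average, 10 were higher in replicate 2, where 45.6% of all genes were, and the median log2 difference was 0.17, beside -0.036 for the 13 homeostatic genes among the 35 with enough counts and -0.022 for all genes.

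Markers of other macrophages and leukocytes were scarce. Of 11 genes of border macrophages, which line vessels and meninges, 3 reached 1 TPM in both animals, where 58.9% of nuclear protein-coding genes did. The summed level of the 11 was 18.9 TPM in replicate 1 and 17.5 TPM in replicate 2. Mrc1, the mannose receptor that defines these cells, had 1.82 and 1.53 TPM, and Csf1r stood 18.8-fold and 22.8-fold above it. The scavenger receptor Stab1, which endothelial cells can also express, was the largest contributor with 7.47 and 10.8 TPM. F13a1, a coagulation factor subunit, had 114 and 53 counts, a log2 difference of -1.23 (counting SE 0.24). All 4 border macrophage genes with at least 50 counts were lower in replicate 2, as were 7684 of all 14122 genes. With spike-in scaling 2 of the 4 were higher there, as were 12444 of all genes. Among the 4, Cd163 had 63 counts in each library, a log2 difference of -0.135 (counting SE 0.257). Stab1 was lower by scaled counts (-0.187) but higher by TPM. The part of border macrophages in the differences of Tmem119, Mertk and Fcgr3 was not tested.

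Of 10 monocyte and neutrophil genes only Ly6c2 reached 1 TPM in both animals, where 58.9% of nuclear protein-coding genes did. Of the 10, 6 were listed at 0 in at least 1 library. Their summed level was 2.25 and 2.88 TPM. Of 10 lymphocyte genes only Cd4 did, with 4.22 TPM in replicate 1 and 6.34 TPM in replicate 2, while the T cell receptor subunits Cd3e and Cd3g were listed at 0 TPM in both animals. The lymphocyte sum of 4.32 and 7.53 TPM was mostly Cd4.

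**Figure D2:**
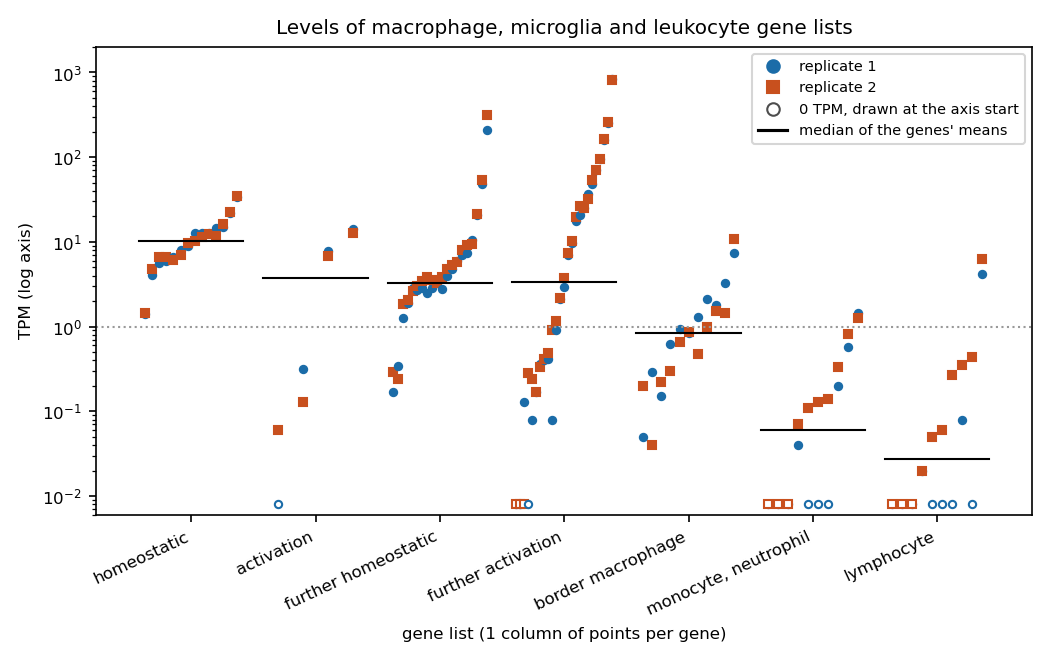
TPM (log axis) of the homeostatic and activation genes beside further microglia genes and markers of border macrophages, monocytes and neutrophils, and lymphocytes, with 1 column of points per gene and a line at the median of the genes' means. The homeostatic line lies between the means of Tgfbr1 (9.31 TPM) and Tmem119 (11.5 TPM), while the lines of the 3 lists of other cells lie below the dotted line at 1 TPM.

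Between the animals the 31 genes with enough counts moved about as much as other genes. The median size of the log2 difference, without its sign, was 0.161 for the 31 genes. It was 0.149 over all 14122 genes that averaged 50 counts or more. With the sign kept, the median was -0.036 for the 31 genes and -0.022 for all genes. In all, 14 were higher in replicate 2, where 45.6% of all genes were, and 17 were lower. None passed a 2-fold difference, which 1.25% of all genes did, and 5 passed 1.2-fold, which 27.4% of all genes did. Those 5 were Tmem119, Gpr34, Mertk, Fcgr3 and Csf3r, each lower in replicate 2. The size was less stable for some: Csf3r had -0.289 (counting SE 0.193) but -0.057 in the second quantification. Its counts of 117.94 and 105.98 are not whole. With spike-in scaling Csf3r had -0.015 and Mertk -0.023. By the deposited credibility intervals of TPM, 3 of the 31 did not overlap between the animals, beside 19.8% of all genes. Mertk and Tmem119 were lower in replicate 2 and Sall1 was higher there. A difference of more than 2 counting SEs was seen for 7 of the 31 genes and for 46.4% of all genes. The median counting SE was 0.13 for the 31 genes and 0.082 for all genes.

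By class, the homeostatic median difference was -0.036 over 13 genes, from -0.42 for Tmem119 to 0.19 for Siglech, and 6 of the 13 were higher in replicate 2. The only activation genes with enough counts, Lpl and Spp1, had -0.18 and -0.16. Whether the classes differed was not tested. Direction depended on the scaling: with spike-in counts the median of all genes was 0.25, and that of the 31 genes moved with it to 0.24, with 26 of the 31 higher in replicate 2 beside 12444 of all 14122 genes.

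**Figure D3:**
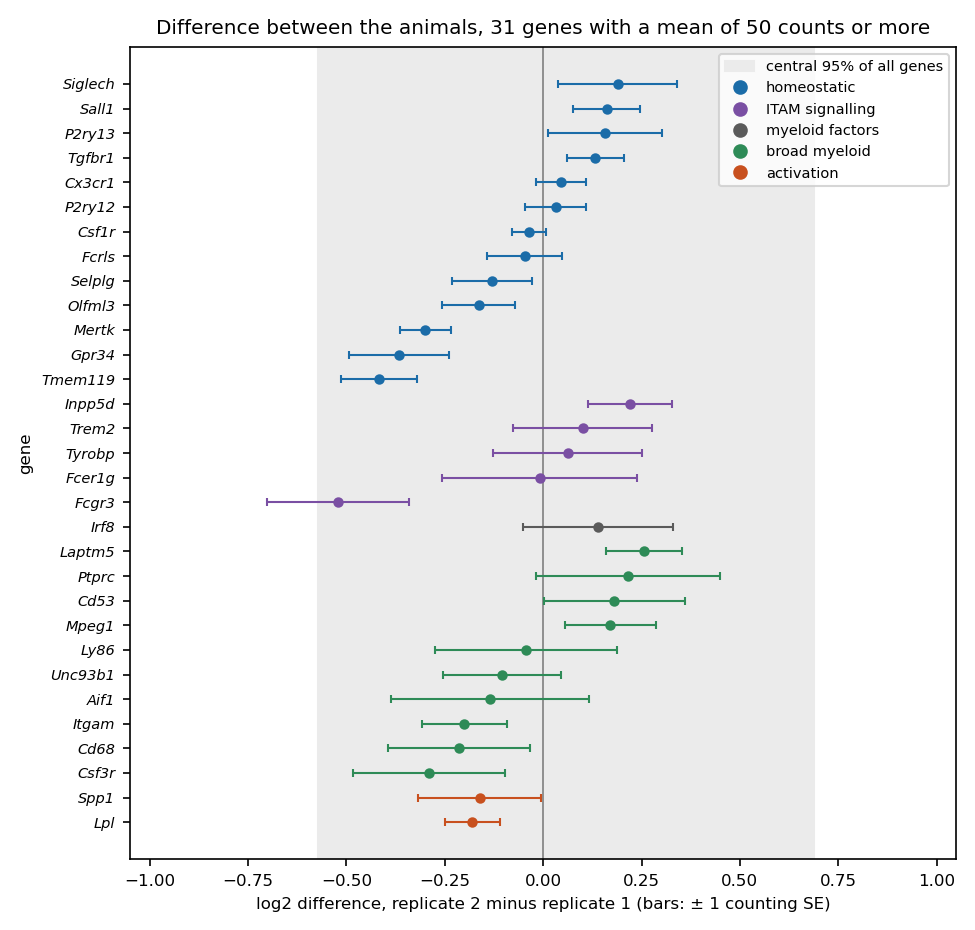
Log2 difference, replicate 2 minus replicate 1, of the 31 genes that averaged 50 counts or more, with bars of 1 counting SE and colours for the classes. All points lie inside the grey band that holds the central 95% of all genes (-0.57 to 0.69), from Fcgr3 at -0.52 to Laptm5 at 0.26.

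How reads were assigned to transcripts differed between the quantifications for many of these genes. Of the 33 detected genes, 29 have several annotated transcripts. In 18 of these 29 both quantifications named the same leading transcript by TPM, 62.1% beside 81.4% of nuclear protein-coding genes. By estimated counts the leading transcript was the same in 22 of the 29, 75.9% beside 87.4%. In 23 of the 29 the animals shared the leading transcript, 79.3% beside 86.1%. The share held by transcripts without coding annotation was 9.47% and 10.8% of the summed level of the detected genes in the first quantification, and 14.7% and 16.1% over protein-coding genes.

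P2ry12 shows how far the quantifications could part. The first gave 49.3% and 70.5% of the gene to P2ry12-202 and 3.11% and 0% to P2ry12-201, whereas the second gave P2ry12-201 90.2% and 76.5%. All 5 annotated transcripts are protein coding, so this bears on the form and not on coding status. Tyrobp was assigned wholly to Tyrobp-201 in the first quantification and to Tyrobp-202 for 56.3% and 43.6% in the second. For Csf1r the quantifications came close, with Csf1r-201 at 85.0% and 76.7% in the first and 79.4% and 74.2% in the second. Lpl-203, annotated as subject to nonsense-mediated decay, took 26.9% and 18.4% of Lpl in the first and 20.1% and 16.7% in the second.

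**Figure D4:**
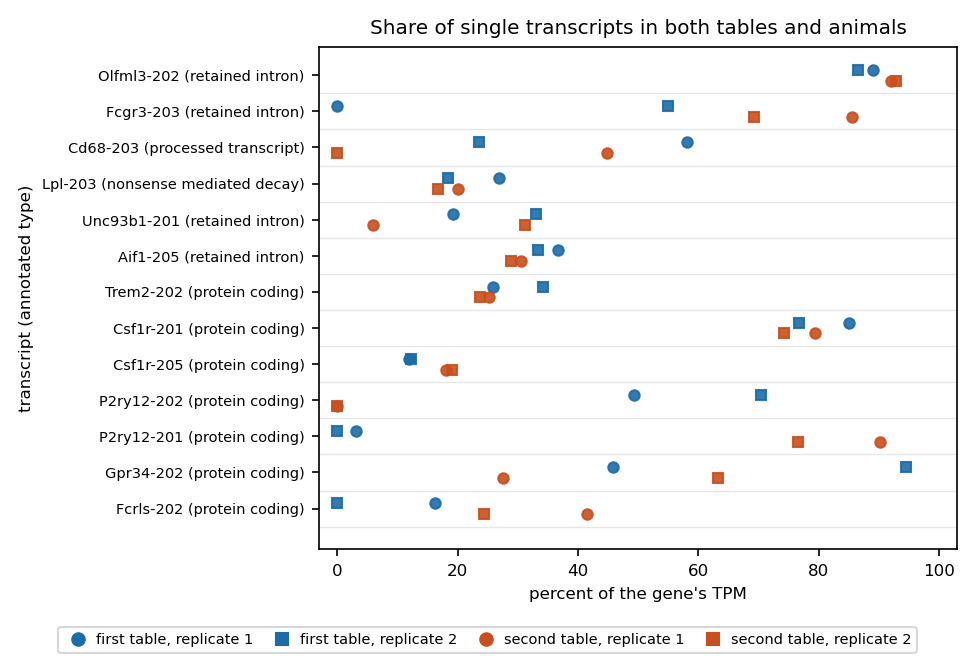
Percent of the gene's TPM given to each of 13 chosen transcripts in the first (blue) and second (orange) quantification, with circles for replicate 1 and squares for replicate 2. The 4 estimates of Olfml3-202 sit between 86.5% and 92.8%, while those of P2ry12-202 range from 0% to 70.5% and those of Fcgr3-203 from 0% to 85.6%.

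Promoter sequence was examined for motifs of PU.1, the factor encoded by Spi1, which binds purine-rich sites at many macrophage genes. RefSeq windows (GRCm38.p6) from 250 bases before to 50 after the gene start were found for 26 of the 35 genes, 33 windows in all. On either strand the PU.1 motif GAGGAAGT was present in 3 of the 33 windows (9.09%) and in 3.20% of all 32851 windows. The longer AGAGGAAGT, which contains it, was in 0 of the 33 (1.0% of all). The shorter ETS motif GGAAGTG, which shares 6 bases with it, was in 9 (27.3%; 11.0% of all), and CCGGAAGT, an ETS form of CpG-rich promoters, in 0 (3.89% of all). TATAAA was in 5 (15.2%; 13.6% of all) and the AP-1 motif TGANTCA in 4 (12.1%; 7.81% of all). These counts describe letters in a short window and not binding. The 3 genes with GAGGAAGT were Cd53, Inpp5d and Spp1, a broad myeloid, an ITAM and an activation gene. In Cd53 the motif began 7 bases after the start on the reverse strand. For the others it lay before the start, at -20 for Inpp5d and -113 for Spp1, and the 250 bases before the start are shown with the motif in capitals.
Inpp5d, chr1:87620062-87620311, plus strand: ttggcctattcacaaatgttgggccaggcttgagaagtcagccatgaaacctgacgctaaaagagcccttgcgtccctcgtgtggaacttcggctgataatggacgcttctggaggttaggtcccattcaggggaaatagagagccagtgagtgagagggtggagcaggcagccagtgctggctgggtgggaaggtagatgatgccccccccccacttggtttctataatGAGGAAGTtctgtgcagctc
Spp1, chr5:104434861-104435110, plus strand: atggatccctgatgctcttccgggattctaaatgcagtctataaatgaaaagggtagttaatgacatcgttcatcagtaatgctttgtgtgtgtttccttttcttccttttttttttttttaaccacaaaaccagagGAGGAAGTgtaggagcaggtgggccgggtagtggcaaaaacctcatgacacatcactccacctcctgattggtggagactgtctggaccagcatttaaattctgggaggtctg
Inpp5d and Spp1, which carry the motif before the start, had log2 differences between the animals of 0.22 and -0.16.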

How the data were processed

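The build was mm10 and the annotation GENCODE M21, per the readme deposited by the authors. No aligner, quantifier, version or use of strand in counting is given in the sources used here. The first quantification holds the authors' expected counts, TPM, percent of the gene per transcript and credibility bounds (scores whose level is not stated), per the file headers. The second holds the authors' estimated counts and TPM per transcript, summed here to genes. Reads of the CAST/EiJ genome were assigned on the reference and may be counted less often.

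Expected counts were rounded and scaled with TMM in edgeR 4.0.16 (R 4.3.3) to log2 CPM with a prior count of 1. Detection meant 1 TPM in both libraries. The counting SE comes from both counts and covers counting error only, as do floors of 3 counts, since reads carried no molecular identifiers. The computation of log2 differences was checked on simulated counts; no test between the animals was made. DESeq2 1.42.0 size factors, totals and spike-ins gave other scalings. TMM put the effective size of the replicate 2 library at 1.10 times that of replicate 1, and the others at 1.09, 1.07 and 0.908 times. Spike-ins had 75029 and 68108 counts.

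The genes, their classes and the other lists were chosen with earlier results of these data known. All 35 genes are named. From other lists the text names the genes of highest TPM (up to 4) or largest difference (up to 3), any gene of the leukocyte lists, and genes that a sentence on a ligand or a floor turns on, which were chosen after their values were seen. Transcripts are named where they lead with under 60% of the gene, are not coding or differ between quantifications or animals; others were chosen after their values were seen. Protein sequences are not shown. Leaving out Mertk and Tgfbr1 was an alternative added after seeing the data.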

Additional observations from a re-analysis of the deposited data

How the results depend on the processing

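Of 57 alternative values of 9 results, 38 moved by less than the SD of the main value, its counting SE or, for counts of genes, a factor of 1.5. For some of the 38 this outcome was fixed. With 2 animals, leaving 1 out always moves a mean by less than the SD, and rescaling TPM cannot change a ratio of medians. Those values are no check on the results. The main medians were 10.3 TPM (homeostatic) and 3.79 TPM (activation), a ratio of 2.74. The second quantification gave a homeostatic median of 9.61 TPM and a ratio of 2.54. Means of log2(TPM + 1) turned back to TPM gave 9.46, 2.51 and a ratio of 3.78. Rescaling TPM over nuclear protein-coding genes gave 21.4 and 7.86 TPM with the ratio unchanged. Widening the activation class gave a median of 6.55 TPM and a ratio of 1.58, and leaving out Lpl and Spp1 gave 0.128 TPM and 85.8. Without Mertk and Tgfbr1 the homeostatic median was 9.44 TPM and the ratio 2.49, an alternative chosen after seeing the data. The median log2 difference of the 31 genes with enough counts was 0.006 with totals and 0.24 with spike-ins, that of the homeostatic class 0.24 with spike-ins, and that of the activation class 0.105 with spike-ins and 0.40 with no filter on counts, where Itgax and Cst7 enter. With no filter 1 gene, Itgax, passed 2-fold, from 3 and 10 counts. Leaving out either replicate moved the homeostatic median between 9.90 and 10.8 TPM, the activation median between 3.47 and 4.11 TPM and the ratio between 2.62 and 2.86. The activation difference without Lpl and Spp1 has no value, since no gene is left above 50 counts. Detection at 5 TPM left 24 genes. No paired analysis was possible because the samples form 1 group with 1 library per animal. The counting SEs of Spi1, P2ry6, Ptprc, Aif1 and Fcer1g were 0.23 to 0.31 and that of Itgax was 0.95. Differences of up to 2 of these SEs could not be told from read sampling at this depth.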

Other observations

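The share of some transcripts differed between the animals in the same direction in both quantifications, for coding transcripts of Gpr34 and Fcrls and for transcripts without coding annotation of Unc93b1. Gpr34-202 took 45.9% of Gpr34 in replicate 1 and 94.5% in replicate 2, and 27.6% and 63.3% in the second quantification. Fcrls-201, the leading form of Fcrls, took 83.8% and 100% in the first and 58.5% and 75.6% in the second. Unc93b1 had 29.4% and 59.5% of its level in transcripts without coding annotation, and the second quantification also gave the higher share, 65.3%, to replicate 2. These were chosen after their values were seen, and with 1 library per animal the differences have no replicate check.

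Stab1, like Itgax, gave opposite directions by unit: its counts were 610 and 589, and its TPM was 7.47 and 10.8, with effective lengths of 4500 and 2886 bases. The apolipoprotein Apoe, a ligand of Trem2, stood 135.1-fold above it in replicate 1 and 134.9-fold in replicate 2.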
